A study of Mus musculus with 12 samples.

Results

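The EGR transcription factors, their NAB corepressors and the factor that switches on EGR genes were followed through RNA-seq of MIN6 cells, an insulin-secreting mouse β-cell line derived from an insulinoma. The 7 genes, Egr1, Egr2, Egr3, Egr4, Nab1, Nab2 and Srf, were taken by gene symbol from the 54022 genes of the count and FPKM tables, and all 7 were found. The set was put together around Egr1, which was the 1 gene past the threshold between TMAO and vehicle at low glucose. The set was thus chosen by the values of that contrast, which are given below as a description with no test. Cells were given either 100 nM trimethylamine N-oxide (TMAO, a metabolite made by the liver from a product of gut bacteria) or vehicle for 18 h, and each treatment was combined with low or high glucose. Each of the 4 conditions has 3 libraries, which the study names biological replicates. All cells belong to 1 tumour-derived line, with no primary islets among them.

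EGR proteins are zinc-finger transcription factors encoded by immediate early genes, which are transcribed within minutes of a stimulus without new protein synthesis. In β-cells glucose metabolism raises cytosolic calcium, and calcium signals through ERK kinases and through SRF and its ETS partners to start Egr1 transcription. SRF binds a short sequence, the CArG box, found beside many immediate early and cytoskeletal genes. NAB1 and NAB2 bind EGR1, EGR2 and EGR3 and recruit the NuRD chromatin remodelling complex, and transcription of Nab2 is itself known to be raised by EGR1 in other cells, which closes a negative feedback loop.

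The promoters at hand for the set were searched for these control sequences. RefSeq promoter windows on GRCm38.p6, each holding 300 bases of which 250 lie before a start site, were at hand for 5 of the 7 members. Egr1 and Egr3 had no window, so nothing is known here of their promoters. There were 5 such windows for Egr2 and 1 each for Egr4, Nab1, Nab2 and Srf. The windows were searched on both strands for the CArG box, for TGACG (the core of the cAMP response element bound by CREB), for the whole element TGACGTCA, for GCGNGGGCG (the EGR binding sequence) and for CCGGAA (an ETS core). Across the 32851 windows of the table, 1.63% held a CArG box, 20.8% TGACG, 1.79% TGACGTCA, 5.55% GCGNGGGCG and 14.9% CCGGAA. Each TGACGTCA is also a TGACG match. A match is a match of letters, and binding was not measured.

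The Srf promoter held 2 CArG boxes, and 4 of the 5 Egr2 windows held 1, while none was matched in the windows of Egr4, Nab1 and Nab2. Of these 4 Egr2 windows, 3 overlap and share the same box. The stretches below are shown because they hold the SRF, CREB or EGR letters of the genes whose transcripts are described next. In the Srf stretch, chr17:46556176-46556312 on the minus strand (150 to 14 bases before the start), capitals mark the CArG boxes. The Egr2 stretch, chr10:67537754-67537868 on the plus strand, lies 115 bases to 1 base before a start that is itself inside the annotated gene. Its capitals mark the CArG box between 2 matches of TGACG, the second of them on the opposite strand and so read as CGTCA. The Egr4 stretch, chr6:85513689-85513769 on the minus strand (180 to 100 bases before the start), has both TGACG matches on the opposite strand, in capitals. The short Nab1 stretch, chr1:52500542-52500566 on the minus strand (118 to 94 bases before the RefSeq start, inside an exon of a longer Nab1 transcript), has 1 of its 3 matches of the EGR sequence in capitals.
Srf: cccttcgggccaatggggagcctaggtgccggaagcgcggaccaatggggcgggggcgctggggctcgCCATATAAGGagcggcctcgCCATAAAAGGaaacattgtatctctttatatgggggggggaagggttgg
Egr2: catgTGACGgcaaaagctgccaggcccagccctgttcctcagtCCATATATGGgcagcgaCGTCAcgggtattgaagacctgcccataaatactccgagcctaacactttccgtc
Egr4: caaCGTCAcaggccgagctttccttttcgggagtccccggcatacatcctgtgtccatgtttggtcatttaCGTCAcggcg
Nab1: ctcggccgcGCGTGGGCGggagccg

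The Srf promoter also held 1 match of the EGR sequence, 101 to 93 bases before the start, 1 ETS core and 1 TGACG. Nab1 held 3 EGR sequences and 1 TGACG. Of the 5 Egr2 windows, 1 that is not shown held 3 ETS cores. The Nab2 window, at a RefSeq start that lies inside the gene as the files annotate it, held none of the 5 sequences searched.

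Library totals ran from 16793162 to 22340542 counts with a median of 18874667.5, and mitochondrial genes took between 1.498% and 1.755% of counts. No 2 libraries of a condition agreed within counting noise, with a chi-square per gene of 2.438 to 6.86 over the 12 replicate pairs. All 10 β-cell markers, among them Ins1, Ins2, Pdx1 and Mafa, were expressed, with a summed level of 40970 to 48490 FPKM. The α-cell list summed to 766.6 to 910.6 FPKM, from 2 of its 4 genes. The lists for δ, PP, ε, acinar, duct, fibroblast and endothelial cells stayed between 0 and 2.106 FPKM.

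Of the set, Srf, Nab1 and Nab2 were well expressed in all 4 conditions, Egr1 moved from the middle of the expressed genes to their upper part with glucose, and Egr2, Egr3 and Egr4 were close to the detection limit. On the FPKM scale, which corrects for gene length, the order with vehicle at low glucose was Srf (25 ± 0.559, SD, n = 3), Nab1 (12.22 ± 0.492), Nab2 (10.38 ± 0.555), Egr1 (3.853 ± 0.207), Egr2 (0.0831 ± 0.0454), Egr4 (0.0738 ± 0.000962) and Egr3 (0.0119 ± 0.0206). The libraries of neighbours in this order did not overlap down to Egr1, whereas Egr2 overlapped both Egr4 and Egr3. With vehicle at high glucose, Srf (25.46 ± 1.53) and Egr1 (23.17 ± 0.873) overlapped at the top, followed by Nab1 (13.31 ± 0.373) and Nab2 (11.26 ± 0.942). Egr4 (0.280 ± 0.0301), Egr2 (0.199 ± 0.0367) and Egr3 (0.00371 ± 0.00642) stayed at the bottom. Among the 16222 genes that could be tested, Egr1 stood at percentile 42.58 to 44.72 by FPKM in low-glucose vehicle libraries and at 83.02 to 84.03 in high-glucose vehicle libraries. Srf stayed between percentiles 84.08 and 86.61 in all 12 libraries. As in any bulk sample, more cells with the transcript and more transcript per cell cannot be told apart.

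**Figure D1:**
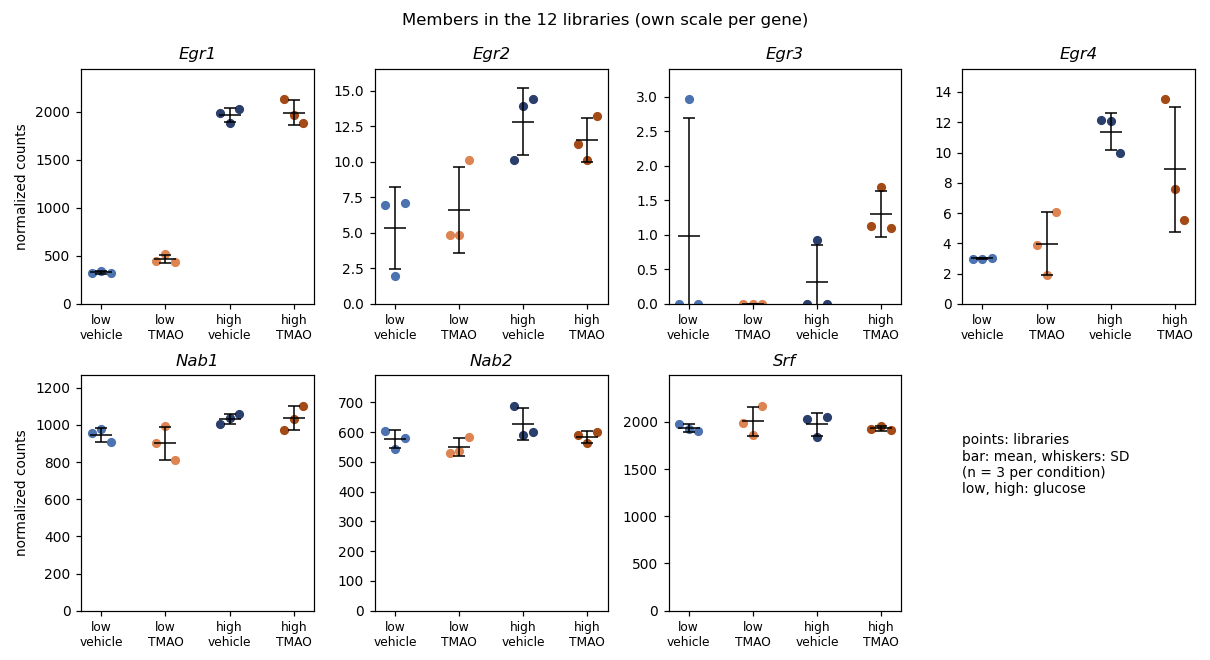
Normalized counts of the 7 members in each of the 12 libraries, on a scale of its own for each gene. Points are libraries, horizontal bars are means and whiskers are SD (n = 3 per condition), with whiskers cut at 0 for Egr3. Egr1 runs from 316.6 to 517.6 at low glucose and from 1884 to 2132 at high glucose, while Srf stays between 1836 and 2167.

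Srf (ENSMUSG00000015605, chr17:46546839-46556162, minus strand), which encodes the factor upstream of EGR genes, varied little across the study. Counts were scaled with TMM to a common library size and are called normalized counts from here on. Srf had 1979, 1927 and 1899 normalized counts with vehicle and 1992, 1863 and 2167 with TMAO at low glucose. At high glucose it had 2030, 1836 and 2053 with vehicle and 1923, 1959 and 1914 with TMAO. The conditions overlapped in every comparison. The log2 fold change of high against low glucose was 0.0275 with vehicle (95% interval -0.0829 to 0.138, edgeR adjusted p = 0.895) and -0.0548 with TMAO (-0.165 to 0.0554, adjusted p = 0.718). Leaving out single libraries turned the sign of both, without HG vehicle replicate 3 for the first and without LG TMAO replicate 3 for the second.

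Egr1 (ENSMUSG00000038418, chr18:34859823-34864984, plus strand), the best-known immediate early member of the family, rose with glucose under both treatments. How long the cells had been in low or high glucose when RNA was taken is not given in the sources used here. With vehicle it had 316.6, 346.8 and 316.7 normalized counts at low glucose and 1993, 1884 and 2026 at high glucose. With TMAO it had 450.2, 517.6 and 437.0 at low glucose and 2132, 1964 and 1885 at high glucose. Every high-glucose library lay above every low-glucose library, with a gap between 517.6 and 1884. The fold of high over low glucose was 6.02 with vehicle (95% interval 5.46 to 6.63, log2 fold change 2.59, SE 0.0684, edgeR adjusted p = 1.06e-22) and 4.25 with TMAO (3.88 to 4.66, log2 fold change 2.09, SE 0.0652, adjusted p = 1.33e-20). The test was edgeR's quasi-likelihood test on the counts, with p-values adjusted over all 16222 genes by Benjamini-Hochberg. Each of these comparisons shares 3 low-glucose libraries with the contrast that chose the set. By p-value Egr1 was the gene at rank 2 in both. By size of the rise among the 12309 genes with a mean of at least 50 counts, it was at rank 6 with vehicle, after Sik1, Spry4, Cebpd, Nr4a1 and Fos, and at rank 10 with TMAO.

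Glucose raised Egr1 by 1641 normalized counts with vehicle and by 1525 with TMAO. Of the 6 members tested, Egr1 and Egr4 passed the threshold with vehicle, where 3.3% of all tested genes passed, 1.99% of them upward. With TMAO only Egr1 passed, against 3.64% of all tested genes, 2% of them upward. Egr2 and Egr4 entered the test only because of their high-glucose libraries, so neither their direction nor the count that includes Egr4 is evidence of a shared response. Without the test, every high-glucose library lay above every low-glucose library for Egr1, Egr2, Egr4 and Nab1 with vehicle, where 9.28% of all tested genes did so, and for Egr1, Egr2 and the untested Egr3 with TMAO, against 8.98%. Nothing is read from these counts, since Egr2 and Egr4 were admitted by the same libraries and Egr3 had 1, 2 and 1 counts against 0 in each library.

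**Figure D2:**
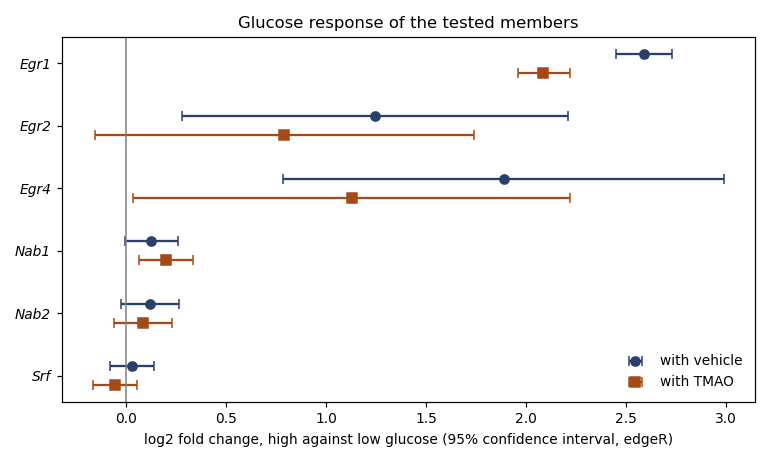
Log2 fold change of high against low glucose for the 6 members tested, with vehicle (circles) and with TMAO (squares), and 95% confidence intervals from edgeR. Egr1 stands at 2.59 and 2.09 with narrow intervals, Egr2 and Egr4 have wide ones, and Nab1, Nab2 and Srf lie between -0.0548 and 0.199.

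Egr4 (ENSMUSG00000071341, chr6:85511121-85513589, minus strand) was detected in all 12 libraries by a few counts. It had 3, 3 and 3 counts with vehicle and 4, 2 and 6 with TMAO at low glucose, and 12, 13 and 9 with vehicle and 12, 9 and 5 with TMAO at high glucose. Summed over the 6 low-glucose libraries it took 0.1846 CPM (counts scaled by the library totals, exact 95% Poisson interval 0.1143 to 0.2822, 21 counts), and over the 6 high-glucose libraries 0.5337 (0.4073 to 0.687, 60 counts), intervals that cover counting error only. The groups were apart with vehicle and overlapped with TMAO. The fold with glucose was 3.7 with vehicle (95% interval 1.72 to 7.97, edgeR adjusted p = 0.0469) and 2.19 with TMAO (1.02 to 4.67, adjusted p = 0.321). Egr4 reached the filter on low counts in 3 high-glucose and 0 low-glucose libraries, so a gene admitted to the test in this way had to be higher at high glucose, and the p supports nothing here. The call with vehicle was lost when any 1 of its 6 libraries was left out, with adjusted p from 0.0958 to 0.157, and when no filter on low counts was applied (adjusted p = 0.0771).

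Egr2 (ENSMUSG00000037868, chr10:67535475-67542188, plus strand), known for its part in myelination and in lymphocytes, was nearly as rare. It had 7, 2 and 7 counts with vehicle and 5, 5 and 10 with TMAO at low glucose, and 10, 15 and 13 with vehicle and 10, 12 and 12 with TMAO at high glucose. After scaling, the high-glucose libraries lay above the low-glucose libraries under both treatments, the closest pair being 10.14 against 10.12 with TMAO. Summed over 6 libraries each, it took 0.3165 CPM (0.2217 to 0.4382, 36 counts) at low and 0.6405 (0.5011 to 0.8066, 72 counts) at high glucose. The log2 fold changes, 1.245 with vehicle (SE 0.473, adjusted p = 0.196) and 0.79 with TMAO (SE 0.462, adjusted p = 0.456), did not pass the threshold in edgeR. With 2 to 15 counts a library, the counting error alone was 28.1% to 43.3% of a condition's mean.

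Egr3 (ENSMUSG00000033730, chr14:70077203-70082614, plus strand) was too rare to test. It had 3 counts over the 6 low-glucose libraries, all of them in vehicle replicate 2, and 5 counts over 4 of the 6 high-glucose libraries. These are 0.02637 CPM (0.005439 to 0.07708) and 0.04448 (0.01444 to 0.1038). At high glucose the libraries had 0, 1 and 0 counts with vehicle and 1, 2 and 1 with TMAO, a difference of single counts. The groups were apart there, as were 5.47% of all tested genes in that direction. A change of Egr3 was not detectable at this depth.

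Egr1 therefore made up nearly all EGR transcript on a per-length scale. Its share of the summed FPKM of the 4 EGR genes was 95.78% ± 0.804 with vehicle and 96.42% ± 1.86 with TMAO at low glucose. At high glucose it was 97.95% ± 0.226 with vehicle and 98.28% ± 0.271 with TMAO.

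Neither NAB corepressor passed the threshold with glucose, and their differences were small beside that of Egr1. Nab1 (ENSMUSG00000002881, chr1:52457294-52500679, minus strand) had 954.7, 980.1 and 907.3 normalized counts with vehicle and 901.4, 991.7 and 813.2 with TMAO at low glucose. At high glucose it had 1003, 1036 and 1059 with vehicle and 972.0, 1034 and 1101 with TMAO. The high-glucose libraries lay above the low-glucose ones with vehicle and overlapped them with TMAO. Its log2 fold change with glucose was 0.124 with vehicle (SE 0.0648, 95% interval -0.00817 to 0.257, edgeR adjusted p = 0.433). With TMAO it was 0.199 (SE 0.065, 0.0661 to 0.332, adjusted p = 0.0955). Without LG TMAO replicate 2 the latter was 0.276 and passed the threshold (adjusted p = 0.0158).

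Nab2 (ENSMUSG00000025402, chr10:127660918-127668568, minus strand), the corepressor known as an EGR1 target, had 605.4, 544.4 and 581.6 normalized counts with vehicle and 531.1, 536.0 and 584.6 with TMAO at low glucose. At high glucose it had 687.5, 591.1 and 601.7 with vehicle and 591.3, 562.8 and 600.3 with TMAO. The conditions overlapped throughout. Its log2 fold change with glucose was 0.119 with vehicle (95% interval -0.0252 to 0.263, edgeR adjusted p = 0.517) and 0.0856 with TMAO (-0.0601 to 0.231, adjusted p = 0.651). These intervals reach at most a 1.2-fold rise, against the 6.02-fold rise of Egr1 in the same libraries. Exons of Nab2 overlap those of Gm16229 by 1050 bases, of Nemp1 by 151 bases and of Stat6 by 40 bases, all on the opposite strand. Gm16229 had a mean of 0.1 counts a library. The strand setting of the counting is not given in the sources used here. A part of the Nab2 counts, and so of its level and of the ratios that use it, is therefore uncertain.

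The ratio of Egr1 to corepressor transcripts was higher at high glucose in every library. The FPKM of Egr1 over the summed FPKM of Nab1 and Nab2 was 0.1609, 0.1823 and 0.1685 with vehicle and 0.2507, 0.2722 and 0.2454 with TMAO at low glucose. At high glucose the ratio was 0.929, 0.9257 and 0.9758 with vehicle and 1.085, 0.9872 and 0.8892 with TMAO. The high-glucose libraries thus held about as much Egr1 as corepressor transcript, and the vehicle and TMAO libraries overlapped there. The ratio of Nab1 to Nab2 had means between 1.181 and 1.271 in the 4 conditions. These are ratios of mRNA, and protein was not measured in these files.

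**Figure D3:**
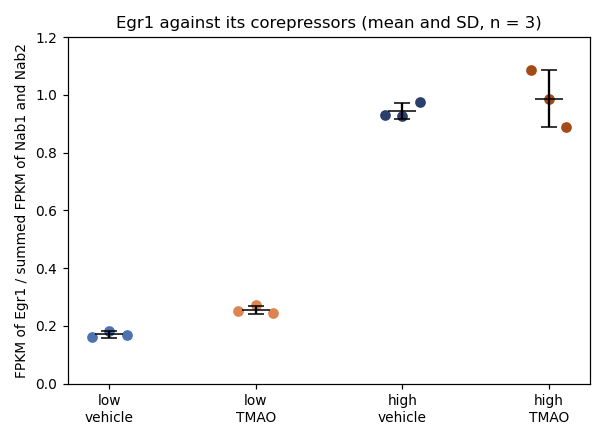
FPKM of Egr1 divided by the summed FPKM of Nab1 and Nab2, per library, with the mean and SD of each condition (n = 3). The ratio averages 0.1706 and 0.2561 at low glucose with vehicle and TMAO, and 0.9435 and 0.9872 at high glucose.

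At high glucose, no tested member differed between TMAO and vehicle beyond the spread of the libraries. This comparison shares no library with the contrast that chose the set. No member passed the threshold, and neither did any of the 16222 genes in edgeR's test (0%), with 868 genes (5.35%) at an unadjusted p under 0.05, 3 genes passing in DESeq2's Wald test and 0 in limma on FPKM. The log2 fold change of Egr1 was 0.0192 (95% interval -0.0993 to 0.138, adjusted p = 0.987), which holds any change of its mean between 0.933-fold and 1.1-fold. It was -0.158 for Egr2 (-0.998 to 0.682, adjusted p = 0.987) and -0.379 for Egr4 (-1.28 to 0.519, adjusted p = 0.951), wide intervals that leave sizeable changes possible. Among the corepressors it was 0.0045 for Nab1 (-0.127 to 0.136, adjusted p = 0.998) and -0.102 for Nab2 (-0.246 to 0.0427, adjusted p = 0.927). For Srf it was -0.0296 (-0.14 to 0.0809, adjusted p = 0.98).

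At low glucose, the contrast behind the choice of the set, Egr1 averaged 468.3 ± 43.3 normalized counts (SD, n = 3) with TMAO and 326.7 ± 17.4 with vehicle, 141.6 counts or 0.52 on the log2 scale apart (SE 0.0754). All 3 TMAO libraries, with 437.0 the lowest, lay above the 3 vehicle libraries, with 346.8 the highest, as in 3.18% of all tested genes. That this 1 gene of the 16222 tested (0.00616%) passed the threshold is how the set was chosen, and nothing is read from it. It did not pass without LG TMAO replicate 2, the library with the most Egr1, where the log2 fold change was 0.44, nor with limma on log2(FPKM + 1) or log2(FPKM + 0.1), where it was 0.424 and 0.505. Next by rank of p-value, outside the threshold, were Dusp6, a phosphatase that inactivates ERK, with 34.73, 46.44 and 37.55 normalized counts for vehicle and 76.01, 78.37 and 58.67 for TMAO, and Cited2, a transcriptional coregulator, at -0.24 on the log2 scale. The step of Egr1 with TMAO at low glucose was small beside its step with glucose of 1641 counts. The other tested members differed by 0.30 (Egr2, SE 0.534), 0.38 (Egr4, SE 0.663), -0.07 (Nab1, SE 0.0653), -0.07 (Nab2, SE 0.0712) and 0.05 (Srf, SE 0.0539) on the log2 scale, and their libraries overlapped.

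The leukocyte marker list, carried by Cd68 alone, was higher with TMAO at low glucose, in the libraries that chose the set. Its summed level was 2.885 to 3.619 FPKM with vehicle and 3.866 to 4.097 with TMAO, and at high glucose 4.332 to 4.84 with vehicle and 4.116 to 4.304 with TMAO. All of it came from Cd68, 1 of the 3 genes, a lysosomal protein, while the defining markers Ptprc and Adgre1 were at 0 counts in all 12 libraries. By normalized counts, 3.18% of all tested genes lay apart upward with TMAO at low glucose, and nothing is read from this. The β-cell list overlapped between TMAO and vehicle at low glucose, with 40970 to 46650 and 41940 to 45530 FPKM. With glucose the α-cell list rose: 790.7 to 845.6 against 853.2 to 910.6 with vehicle. With TMAO it was 766.6 to 860.7 against 876.3 to 901.5. At high glucose the β-cell list had 45660 to 47270 with vehicle, above low glucose, and 45330 to 48490 with TMAO, overlapping low glucose. The cause was not tested.

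Whether the glucose response differed with TMAO was asked as an interaction, the log2 fold change with TMAO minus that with vehicle. For Egr1 it was -0.50 (SE 0.0951). This value contains the low-glucose contrast that chose the gene and is a description only. For the other members it was -0.45 (Egr2, 95% interval -1.83 to 0.922), -0.76 (Egr4, -2.39 to 0.871), 0.07 (Nab1, -0.113 to 0.262), -0.03 (Nab2, -0.238 to 0.172) and -0.08 (Srf, -0.238 to 0.0736), each with an edgeR adjusted p of 1. Over all genes 0 of 16222 (0%) passed, 545 (3.36%) had an unadjusted p under 0.05, and DESeq2's Wald test called 1.

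Of 25 listed names of other immediate early genes with known links to SRF, 21 were tested, and most, though not all, rose with glucose. With vehicle 13 rose and 2 fell with glucose, and the median log2 fold change was 0.667, beside 0.0021 over all genes. With TMAO 12 rose and 3 fell, and the median was 0.56, beside 0.0012. Over all tested genes 1.99% rose and 1.31% fell with vehicle, and 2% rose and 1.64% fell with TMAO. The list was chosen with earlier results of these data known, so its excess over these shares is a description only. With vehicle, Fos, a subunit of the AP-1 factor, went from 49.55 ± 7.81 to 336.0 ± 29.2 normalized counts, a 6.76-fold rise (adjusted p = 2.48e-15). Dusp1, a phosphatase that inactivates MAP kinases, went from 547.1 ± 41.6 to 1975 ± 121 (3.61-fold, adjusted p = 2.75e-20). Junb, another AP-1 subunit, rose 2.3-fold (adjusted p = 4.37e-16) and Klf4, a zinc-finger factor, 2.55-fold (adjusted p = 3.44e-14). With TMAO the same 4 genes had the lowest adjusted p-values of the list, with folds of 6.17 for Fos, 3.5 for Dusp1, 2.1 for Junb and 2.26 for Klf4 (adjusted p between 3.73e-20 and 5.28e-13, edgeR). By size of the rise, Nr4a1, an orphan nuclear receptor named here after its values were seen, stood above them, with 8.61-fold under vehicle (adjusted p = 5.2e-09) and 7.84-fold with TMAO (adjusted p = 5.29e-09). The genes that fell, named after their values were seen, were Jun and Klf6 under both treatments and Ier5 with TMAO, with log2 fold changes between -0.422 and -0.245.

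The cytoskeletal genes known as SRF targets did not pass in either direction: 0 of 15 under either treatment, with medians of 0.048 and 0.046. Nor did any of 20 genes listed around the Ras, Raf, MEK and ERK kinase cascade, with medians of -0.014 and 0.014. That list also holds adaptors such as Grb2, downstream kinases such as Rps6ka1, and Mapk6. Over all tested genes 3.3% passed with vehicle and 3.64% with TMAO. In lists this short a count of 0 is near those shares, and nothing is read from it. Of the 7 tested genes listed as SRF cofactors, 0 passed with vehicle and 2 fell with TMAO, where 1.64% of all tested genes fell. The list holds Sap30, a subunit of the Sin3 corepressor complex that is not known as an SRF partner, so 1 of these 2 is an SRF cofactor. The 2 genes were Mkl1, a coactivator of SRF at cytoskeletal genes, from 515.8 ± 42.0 to 394.4 ± 30.5 normalized counts (log2 fold change -0.39, adjusted p = 0.00358), and Sap30, from 434.3 ± 18.1 to 341.9 ± 16.3 (-0.34, adjusted p = 0.00985). With vehicle Mkl1 had a log2 fold change of -0.27 (adjusted p = 0.0602) and Sap30 of -0.185 (adjusted p = 0.292), all by edgeR.

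Downstream of the family, genes reported elsewhere as EGR1 targets were counted. Of 24 tested, 2 rose with glucose under vehicle and 1 with TMAO, where 1.99% and 2% of all tested genes rose, with medians of -0.014 and 0.022. Gadd45a, a DNA damage and growth arrest gene, rose from 1489 ± 14.2 to 2939 ± 293 normalized counts with vehicle (1.97-fold, adjusted p = 1.18e-13) and 1.78-fold with TMAO (adjusted p = 6.45e-12). Sphk1, the kinase that makes sphingosine 1-phosphate, went from 132.9 ± 8.46 to 186.2 ± 13.8 with vehicle (1.4-fold, adjusted p = 0.0148) and from 145.2 ± 16.6 to 180.1 ± 15.5 with TMAO (adjusted p = 0.171 in edgeR).

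The NuRD complex, through which NAB proteins repress, had 2 of 13 subunits fall with vehicle and 1 with TMAO, where 1.31% and 1.64% of all tested genes fell. Gatad2b fell by 0.22 with vehicle (adjusted p = 0.00265) and by 0.18 with TMAO (adjusted p = 0.0167) on the log2 scale, and Gatad2a fell by 0.20 with vehicle (adjusted p = 0.0117). Among 5 other factors of GC-rich sites similar to the EGR sequence, 0 passed with vehicle, and Zbtb7a, a zinc-finger repressor, fell by 0.22 with TMAO (adjusted p = 0.0299, edgeR). In these lists no gene passed with TMAO at high glucose or at low glucose. At low glucose, given as a description since that contrast chose the set, 17 of the 21 immediate early genes had a log2 fold change above 0 with TMAO, and the median was 0.081, beside 0.0011 over all genes. For 6 of the 21 all TMAO libraries lay above all vehicle libraries, where 3.18% of all tested genes did, and for 0 of the 21 all lay below. Over all tested genes 50.7% had a log2 fold change above 0 in this contrast. The libraries are those that chose Egr1, and the list was chosen with earlier results of these data known. Nothing is read from these counts. Above 0 in the other lists were 9 of 15 cytoskeletal genes, 11 of 20 kinase cascade genes, 13 of 24 EGR1 targets, 4 of 7 genes listed as SRF cofactors, 6 of 13 NuRD subunits and 1 of 5 GC-site factors.

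**Figure D4:**
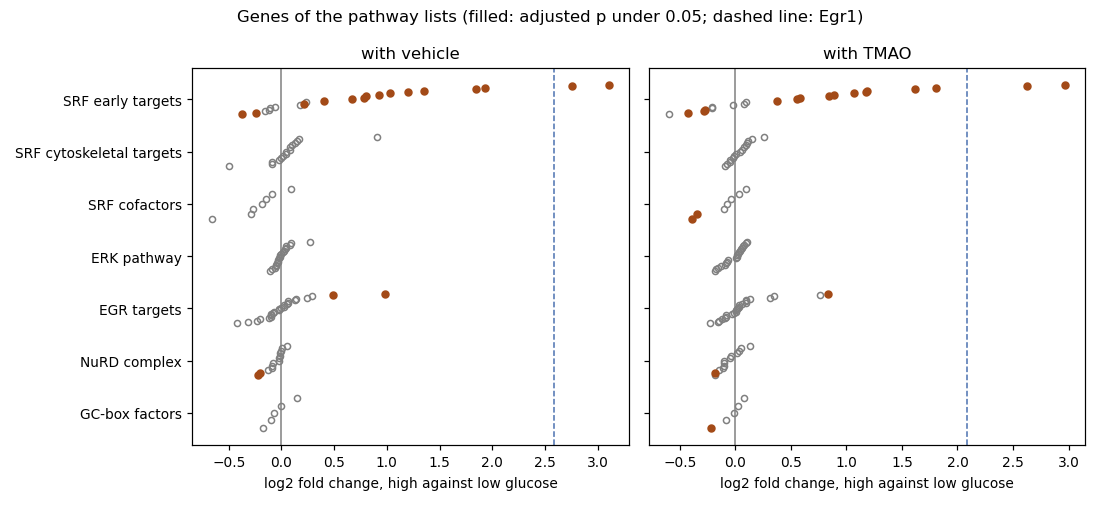
Log2 fold change of high against low glucose for each tested gene of the 7 lists (21, 15, 7, 20, 24, 13 and 5 genes from top to bottom), with vehicle on the left and with TMAO on the right. Filled points passed an adjusted p of 0.05 and the dashed line is Egr1 at 2.59 and 2.09, and the SRF early targets are the row with points far to the right.

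Over the 12 libraries, the genes with a pattern closest to Egr1 by Pearson correlation of log2 normalized values, among 12309 genes, were Dusp5 (r = 0.993), Dusp4 (0.993), Nr4a1 (0.992), Ovol2 (0.992) and Tgif1 (0.992). Their log2 fold changes with glucose under vehicle ran from 1.08 for Dusp5 to 3.11 for Nr4a1. The points fall into low- and high-glucose libraries, so these values mostly carry the difference between them and no p is given. The closest to Nab1 were Lactb2 (0.947) and Soat1 (0.935), to Nab2 Mib2 (0.899) and Aars (0.876), and to Srf Bad (0.936) and Rrp9 (0.903). Within the set, Egr1 correlated at 0.856 with Egr4, 0.758 with Egr2, 0.689 with Nab1, 0.476 with Nab2 and -0.078 with Srf, again as a description over 12 libraries that share the glucose step. Egr2 and Egr4 passed the filter on low counts only through their high-glucose libraries. A positive value with Egr1 was thus built in for them, and nothing is read from it.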

How the data were processed

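RNA was poly-T selected and sequenced as paired ends from MIN6 cells, 3 libraries for each of 4 conditions. The authors deposited counts (fragments per gene, not normalized) and FPKM values. Per the submitters' processing notes, HISAT2 2.0.5, featureCounts 1.5.0-p3 and DESeq2 1.16.1 were used on mm10; their settings, strand included, are not given in the sources used here. The deposited FPKM equals count over gene length and a library total within -0.186% to 1.369% of the summed counts.

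Groups came from the labels. Counts were tested with edgeR 4.0.16 (TMM, filterByExpr with a minimum count of 10, robust quasi-likelihood, 4 condition means in 1 fit, Benjamini-Hochberg over 16222 genes, threshold 0.05), after the code was tested on simulated data. Alternatives were DESeq2 1.42.0, limma 3.58.1 on log2(FPKM + 1) and log2(FPKM + 0.1), other filters and scaling, a replicate block, the comparison's own libraries, and leaving out each library. At most 4 called genes were named per list and glucose comparison, by lowest adjusted p (Nr4a1, Jun, Klf6 and Ier5 were added after their values were seen), and the 5 genes most like Egr1 and 2 most like Nab1, Nab2 and Srf by correlation over genes with a mean of at least 50 counts. The members and lists were chosen with earlier results of these data known. Totals of 16793162 to 22340542 counts allow a share of up to 1.34e-05% to 1.79e-05% where a gene has 0 counts (3 counts of the total). Promoter sequences are from RefSeq on GRCm38.p6.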

Additional observations from a re-analysis of the deposited data

How the results depend on the processing

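The glucose rise of Egr1 passed the threshold under every alternative, between 2.32 and 2.63 on the log2 scale with vehicle and between 1.91 and 2.17 with TMAO. The number of members called with glucose under vehicle, 2 as reported, was 1 with DESeq2's Wald test, with no filter on low counts, with at least 10 counts in every library, and when the fit held just its own 6 libraries. It ranged from 1 to 1 when each replicate was left out. With TMAO it ranged from 1 to 2 when each replicate was left out, the 2 being without LG TMAO replicate 2. For TMAO at low glucose the 1 member became 0 with limma on log2(FPKM + 1) and on log2(FPKM + 0.1), and ranged from 0 to 1 leaving out replicates. For the interaction the 0 members became 1 with DESeq2's Wald test and with no filter on low counts, and ranged from 0 to 1 leaving out replicates, the 1 being without HG TMAO replicate 1. The member lost with glucose under vehicle was Egr4, which the stricter filter, DESeq2 and the fit of 6 libraries left without an adjusted p, the member gained with TMAO was Nab1, and in the other 2 comparisons it was Egr1. The cause was otherwise not tested. The Egr1 counts for TMAO at low glucose and for the interaction hold the contrast that chose the set. Nothing is read from Egr1 passing or not passing there.

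Leaving out replicates turned the sign of small differences. These ranged on the log2 scale from -0.0033 to 0.0763 (Srf, glucose with vehicle), -0.1027 to 0.0015 (Srf, glucose with TMAO), -0.0289 to 0.0552 (Egr1, TMAO at high glucose), -0.0421 to 0.0486 (Nab1, TMAO at high glucose) and -0.076 to 0.0395 (Nab2, interaction). At low glucose the difference with TMAO ranged from -0.1308 to 0.5461 for Egr2, -0.0383 to 0.7051 for Egr4 and -0.0055 to 0.1022 for Srf. The replicate numbers were not taken as pairs, since the labels tie them to no shared batch and not every pair correlated above 0.1. Same-numbered libraries of different conditions correlated at -0.038 to 0.213 after removal of condition means, 2 of 18 pairs above 0.1, and 10 of 12 libraries correlated best with their own number, a hint from the data and not from the design. With the replicate block the members called stayed at 2 and 1 with glucose, 0 for TMAO at high glucose, 1 at low glucose and 0 for the interaction, while over all genes the calls with glucose rose to 717 with vehicle and 783 with TMAO. Over all genes, the calls with glucose were 328 to 475 with vehicle and 344 to 657 with TMAO leaving out replicates, against 536 and 591, and 337 with TMAO by limma on log2(FPKM + 0.1) and 347 on log2(FPKM + 1). With no filter on low counts 13 genes were called for TMAO at high glucose, 7 at low glucose and 6 for the interaction, against 0, 1 and 0, and fits of 6 libraries called 3 at each glucose level. Depth limits Egr2, Egr3 and Egr4, at 0 to 15 counts a library.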
